A study of Mus musculus with 4 samples.

Results

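Genes of the proteasome were described in RNA of purified migrasomes and of cytosol from mouse. All rows whose gene symbol is Psm followed by a letter from a to g and a number were taken, pseudogenes left out, which gave 50 of the 49568 genes in the table. By letter, 19 belong to the 20S core (Psma and Psmb), 21 to the 19S particle (Psmc and Psmd), 5 to the activators (Psme), 1 is an inhibitor (Psmf1) and 4 are assembly chaperones of the core (Psmg). The 21 include Psmc3ip, which the symbol rule takes although it is not a subunit but a recombination protein named for binding Psmc3.

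A migrasome is a vesicle that grows on the thin fibres pulled out behind a moving cell. The groups were purified migrasomes (2 libraries) and cytosol (2 libraries), with no source of the cells named for either. Strain, genotype, treatment, age, cell type and the purification steps are not stated in the labels, which call the molecule total RNA while the design text speaks of mRNA. Nothing says whether the replicates were separate cultures, and the p-values below therefore rest on the scatter among these 4 libraries alone, part or all of which may be technical. In such bulk samples, fewer cells or vesicles and less RNA in each cannot be told apart.

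The proteasome degrades proteins that carry a ubiquitin tag. Its 20S core is a barrel of alpha and beta rings with cutting sites on 3 beta subunits inside, and the 19S particle on its end holds a base, whose ATPase ring unfolds the substrate and pushes it in, and a lid, which takes the ubiquitin off. Interferon exchanges the cutting subunits for a second set, which makes the immunoproteasome and changes the peptides that MHC class I molecules show. The proteasome subunits of both sets are made in the cytosol, without passing through the endoplasmic reticulum.

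Assigned reads came to 5228713 and 5171092 in migrasome replicates 1 and 2, and 7529136 and 8608369 in cytosol replicates 1 and 2. Among the marker genes examined, those of fibroblasts were detected in every library, with summed values of 74547 and 60639 in migrasome and 57785 and 51451 in cytosol. However, 6 of the 9 were called lower in migrasome by the test described below and 1, Vim, higher. A few abundant genes held most of these sums, among them Vim with 33076 and 26052 in migrasome and 16385 and 14221 in cytosol. Epithelial markers summed to 2.83 and 2.63 in migrasome and 1.55 and 0.686 in cytosol, with Krt18 of the 5 at 0 in all libraries. Erythroid markers summed to 1.41 and 1.32 in migrasome and 1.55 and 1.37 in cytosol, with Hbb-bt of the 3 at 0. Immune markers summed to 32.5 and 26.3 in migrasome and 69.8 and 68.6 in cytosol. Of these 8 genes 3 were at 0, Cd3e and H2-Aa among them, and of the 2 tested 1, Cd74, was called lower. Neural markers, 4 genes, summed to 70.7 and 69.8 in migrasome and 34.1 and 30.2 in cytosol, and of the 3 tested 1 was called higher.

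Values are the deposited normalised read counts, which are gene counts divided by a size factor per library. Differences are migrasome minus cytosol after log2(value + 1) transformation, each with its standard error (SE). They were fitted with limma over the 10860 genes that reached a value of 10 in 2 or more libraries. A gene was called when its Benjamini-Hochberg adjusted p was under 0.05.

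A part of the proteasome mRNAs was higher in migrasome, by moderate amounts. Of the 48 tested, 19 were called higher and none lower, beside 8.68% of all tested genes called higher and 17.7% called lower. The median log2 difference of the 48 was 0.67, beside -0.0043 over all tested genes. A positive difference was seen for 46 of the 48, beside 49.8% of all tested genes. Both migrasome libraries lay above both cytosol libraries for 40 of the 48, beside 33.3% of all tested genes, and below them for none. The counts of 46 and 40 include Psmb9 and Psme2b, which entered the test through their migrasome libraries. The proteasome genes held 1.26% and 1.03% of the reads in migrasome replicates 1 and 2 and 0.854% and 0.885% in cytosol replicates 1 and 2. The 95% Wilson intervals were 1.25% to 1.27%, 1.03% to 1.04%, 0.848% to 0.861% and 0.879% to 0.892% in the same order and cover counting error only. Psma8, an alpha subunit of the testis, and Psmb11, a cutting subunit of the thymus, had no read in any library, which allows values up to 4.24 and 3.95 in migrasome and 2.33 and 2.06 in cytosol, the worth of 3 reads.

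**Figure D1:**
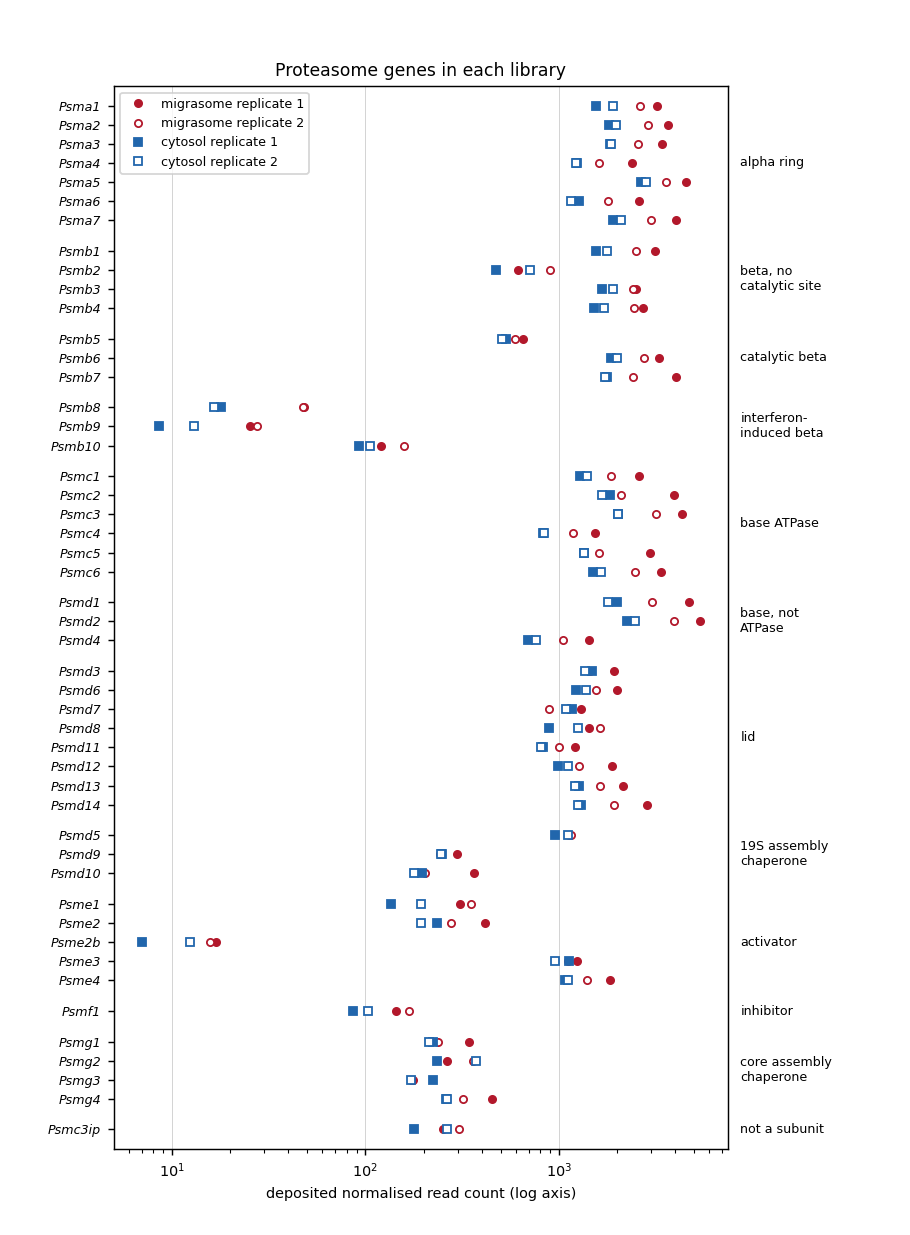
Normalised read count of each tested proteasome gene (log axis) in both migrasome libraries (red circles) and both cytosol libraries (blue squares), with replicate 1 filled and replicate 2 open. Most subunits of the 20S core and of the 19S base have both red points to the right of both blue ones. The interferon-induced Psmb8 and Psmb9 lie lowest among the core genes plotted, and the activator gene Psme2b lies lower still.

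The number of calls depended on single libraries. Migrasome replicate 1 was above migrasome replicate 2 for 39 of the 48 genes, beside 48.4% of all tested genes, and the median log2 gap between them was 0.37. Left without migrasome replicate 1, the fit called 13 genes and gave a median of 0.47, and without migrasome replicate 2 it called 32 and gave 0.82. Without cytosol replicate 1 it called only Psmd1, and without cytosol replicate 2 only Psme1, while 2.63% and 2.13% of all tested genes were then called higher. The median difference was 0.60 and 0.68 in those fits, so leaving out a cytosol library ended calls while the median stayed near that of all 4 libraries. With migrasome replicates left out in turn, 8.45% and 19.2% of all tested genes were called higher. The 19 calls became 3 with no filter on low values (2.06% of all genes tested then), 5 with each library scaled to the same total (2.97%), 7 with quantile normalization (11.0%) and 4 without a variance trend (4.45%). All 3 and all 5 were among the 19, but only 3 of the 7 (Psmb8, Psmd14 and Psme1) and 3 of the 4 (Psmb8, Psmd2 and Psme1) were. On recovered reads edgeR called 21 (9.86%) and DESeq2 24 (10.5%), both with all 19 among them. The median was 0.40 with the same total and 0.38 with quantile normalization, which is 0.67 and 0.27 above the median of all genes in those settings. It was positive in each of the 15 other settings, none of which called a proteasome gene lower, while between 7.07% and 25.8% of all tested genes were called lower in them.

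The alpha ring, 7 subunits that form the outer gate of the core, was mostly higher in migrasome. Of its 7 genes 5 were called, beside 8.68% of all tested genes called higher. All 7 had migrasome libraries above cytosol libraries, beside 33.3% of all tested genes, and the median log2 difference was 0.76. Psma6 measured 2585 and 1796 in migrasome, against 1273 and 1156 in cytosol, a difference of 0.83 ± 0.23 (SE, limma adjusted p = 0.026). Psma7, the most abundant alpha gene per kilobase in migrasome, reached 4021 and 2991 in migrasome and 1910 and 2103 in cytosol (0.79 ± 0.22). In both genes replicate 1 of migrasome was the highest library. Psma1, Psma2 and Psma3 were called with differences of 0.76, 0.78 and 0.68. Psma4 had 2391 and 1619 in the migrasome libraries against 1237 and 1221 in those of cytosol without passing (limma adjusted p = 0.055). Psma5, which did not pass either, had 4513 and 3573 in the migrasome libraries against 2661 and 2833 in those of cytosol (limma adjusted p = 0.085).

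Among the beta subunits without a cutting site, Psmb1 (0.76) and Psmb4 (0.68) were called. Psmb3 measured 2502 and 2408 in migrasome, against 1668 and 1907 in cytosol, and its difference of 0.46 did not pass. The libraries of Psmb2 overlapped, with 615 and 904 in migrasome and 474 and 711 in cytosol, and replicate 2 was the higher in both groups.

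Of the 3 cutting subunits Psmb6 and Psmb7 were called and Psmb5 was not, and the differences between the 3 were not tested. Both calls were lost without migrasome replicate 1 (limma adjusted p = 0.073 for Psmb6 and 0.098 for Psmb7) and when either cytosol library was left out. Psmb6, which cuts after acidic residues, reached 3291 and 2749 in migrasome and 1864 and 1988 in cytosol, and was higher by 0.64 ± 0.21 (SE, limma adjusted p = 0.045). Psmb7, which cuts after basic residues, had 4025 and 2416 in the migrasome libraries against 1766 and 1730 in those of cytosol, and was higher by 0.83 ± 0.26 (limma adjusted p = 0.039). Psmb5, which cuts after hydrophobic residues and is the main target of bortezomib, measured 652 and 594 in migrasome, against 531 and 508 in cytosol, a difference of 0.26 with a 95% interval from -0.18 to 0.70 (limma adjusted p = 0.34), which became -0.011 with each library scaled to the same total. Both migrasome libraries lay above both cytosol libraries for all 3, an order seen in 33.3% of all tested genes. Per kilobase of transcript, Psmb5 was 17.6% and 19.2% of Psmb6 in migrasome and 25.3% and 22.7% in cytosol. Both migrasome ratios were thus lower, a difference that was not tested.

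Promoters were compared because Nfe2l1 binds an antioxidant response element in many proteasome genes of man and mouse. The letters TGACNNNGC were searched on both strands in the 250 bases before each start in RefSeq (GRCm38.p6), where promoters of 42 of the 50 genes were found. They occurred in 5 of the 42, which is 11.9%, beside 11.5% of all 27025 genes with a promoter. 3 of the matches, at Psmb5 and Psmb6, the constitutive cutting subunits that missed and passed the test, and at the ATPase gene Psmc6 are shown with the matched letters in capitals. The stretches lie at chr14:54618014-54618062 (minus strand), chr11:70525328-70525356 (plus strand) and chr14:45329577-45329625 (plus strand).
Psmb5: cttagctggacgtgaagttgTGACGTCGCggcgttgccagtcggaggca
Psmb6: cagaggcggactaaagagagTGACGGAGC
Psmc6: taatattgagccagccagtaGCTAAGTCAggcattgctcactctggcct
In Psmb5 and Psmb6 the match is on the strand of the gene, and in Psmc6 on the opposite strand. These letters are a description of the window, and the libraries measure RNA in fractions rather than transcription.

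Levels per kilobase within the core spanned a wide range in both fractions, although each particle holds its 14 kinds of subunit in equal number. They ran, as means of both libraries, from 693 for Psmb5 to 3836 for Psma7 in migrasome, with a median of 2142 normalised reads per kilobase. In cytosol they ran from 577 for Psmb5 to 2414 for Psmb6, with a median of 1265. Psma7, Psmb6, Psma5 and Psmb3 filled the first 4 places in both fractions, and neighbours among these 4 overlapped in their libraries. Psma2, Psma3, Psmb2 and Psmb5 filled the last 4 in both, and only Psmb5 in cytosol stood clear of its neighbour among them. The length used was that of the transcript with the longest coding sequence, and which isoform these cells use was not measured.

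The interferon-induced cutting subunits were rare. Psmb8, the counterpart of Psmb5, reached 48.1 and 47.4 in migrasome and 17.8 and 16.5 in cytosol, which rest on 34 and 36 reads in migrasome and 23 and 24 in cytosol. Its difference of 1.43 ± 0.34 (SE, limma adjusted p = 0.015) was the largest of all tested proteasome genes, and its call was lost when either cytosol library was left out. Psmb9, the counterpart of Psmb6, had 25.5 and 27.6 in the migrasome libraries against 8.53 and 13.0 in those of cytosol (1.25 ± 0.42, limma adjusted p = 0.053). Both Psmb9 and the Psme2 copy Psme2b entered the test through their migrasome libraries, since only 1 cytosol library of each reached a value of 10. Psmb10, the counterpart of Psmb7, measured 120 and 159 in migrasome, against 92.3 and 106 in cytosol (0.48, not passed).

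Set against its constitutive counterpart per kilobase, Psmb8 was 4.07% and 4.41% of Psmb5 in migrasome and 1.86% and 1.79% in cytosol. Psmb9 was 0.457% and 0.593% of Psmb6 in migrasome and 0.270% and 0.387% in cytosol. Psmb10 was 2.64% and 5.83% of Psmb7 in migrasome and 4.62% and 5.40% in cytosol, so its libraries overlapped. In both fractions the interferon-induced genes thus stood at a few percent or less of their counterparts. The immune markers examined above were lower in migrasome in their sum, of which Cd74 alone held the largest part. It measured 21.2 and 13.2 in migrasome, against 53.5 and 43.9 in cytosol. Of these 8 genes 3 were at 0, Cd3e and H2-Aa among them, and 1, Cd74, was called lower. The part of immune cells in these values was not tested.

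Psmb8 lies on chromosome 17 from 34197721 to 34201454 (plus strand) and Psmb9 beside it from 34181987 to 34187764 (minus strand; GRCm38, GENCODE M21 annotation). Exons of Psmb9 overlap those of the peptide transporter gene Tap1 on the other strand over 212 bases. Those of Psmb8 overlap the antisense gene Gm20496 over 186 bases. Whether the counting used strand is not stated, so reads of such pairs cannot be told apart here. The same holds for Psmb7, whose exons overlap Nek6 on the other strand over 405 bases, and Psmd13, which overlaps Sirt3 over 342. Tap1 moved the other way, with 21.2 and 38.2 in migrasome and 92.3 and 61.7 in cytosol, a log2 difference of -1.38 (limma adjusted p = 0.024). Of the 8 genes examined for interferon-induced antigen processing, 6 were called lower and none higher, beside 17.7% and 8.68% of all tested genes. Their median was -1.53. The other 5 were Tap2 (-2.34), Tapbp (-1.92), Erap1 (-1.74), B2m (-1.69) and Irf1 (-1.20). All but the transcription factor Irf1 encode proteins that are made at the endoplasmic reticulum, and whether this bears on their levels was not tested. The calls of Tap1 and Irf1 were lost without cytosol replicate 1, and that of Irf1 also without cytosol replicate 2 and without migrasome replicate 1.

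The base of the 19S particle was mostly higher in migrasome as well. All 9 of its genes with a Psm symbol had migrasome libraries above cytosol libraries, beside 33.3% of all tested genes. Of these 9, 7 were called, beside 8.68% of all tested genes called higher. Their log2 differences ran from 0.69 to 0.99 with a median of 0.75. The base gene Adrm1, which the symbol rule does not take, overlapped between the fractions (0.044). Psmd1 and Psmd2, the large scaffold subunits that bind ubiquitin and its carriers, led the base. Psmd1 had 4695 and 3024 in the migrasome libraries against 2008 and 1800 in those of cytosol (0.99 ± 0.25, limma adjusted p = 0.018). Psmd2 measured 5366 and 3942 in migrasome, against 2238 and 2473 in cytosol (0.97 ± 0.23, limma adjusted p = 0.014). The ubiquitin receptor Psmd4 reached 1423 and 1046 in migrasome and 692 and 762 in cytosol (0.75).

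The 6 ATPases of the base form the ring that unfolds substrates. Psmc3, the most abundant of them per kilobase, had 4303 and 3157 in the migrasome libraries against 2017 and 2012 in those of cytosol (0.87 ± 0.22). Psmc6 (0.87), Psmc1 (0.71) and Psmc4 (0.69) were called as well. Psmc2 measured 3948 and 2098 in migrasome, against 1838 and 1663 in cytosol. Psmc5 measured 2960 and 1603 in migrasome, against 1355 and 1348 in cytosol. For both, the migrasome libraries lay far apart and the test was not passed (limma adjusted p = 0.087 and 0.092). Exons of Psmc3 overlap Slc39a13 on the other strand over 215 bases, and those of Psmd1 overlap the gene model Gm21972 on the same strand over 301 bases.

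Of the 8 lid genes with a Psm symbol 1 was called in the reported fit, which is 12.5%, near the 8.68% of all tested genes called higher. Of these 8, 6 had migrasome libraries above cytosol libraries, and the median log2 difference was 0.49. Psmd14, the enzyme that cuts ubiquitin chains off the substrate, was the called gene, with 2855 and 1937 in migrasome and 1303 and 1255 in cytosol (0.88 ± 0.23, limma adjusted p = 0.022). Psmd7, the partner with which Psmd14 forms a dimer, reached 1294 and 890 in migrasome and 1173 and 1086 in cytosol, a difference of -0.073 with a 95% interval from -0.58 to 0.44. Psmd3 overlapped too, with 1930 and 1441 in migrasome and 1475 and 1367 in cytosol (0.23). The other 5 of the 8, Psmd6, Psmd8, Psmd11, Psmd12 and Psmd13, had differences from 0.44 to 0.59 and did not pass. Their migrasome libraries lay above their cytosol libraries, an order seen in 33.3% of all tested genes. Shfm1, a lid gene that the symbol rule does not take, was called higher (0.63).

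Per kilobase, Psmd7 was 44.2% and 44.8% of Psmd14 in migrasome and 87.7% and 84.4% in cytosol, a comparison chosen after the values were seen. The replicates thus lay close together and the fractions far apart for this pair. Summed per kilobase, the base genes with a Psm symbol were 1.81 and 1.56 times such lid genes in migrasome and 1.36 and 1.32 times in cytosol. With quantile normalization no base gene and 1 lid gene, Psmd14, were called, and without a variance trend 1 base gene and no lid gene. In the reported fit only Psmd14 among the lid genes reached the lowest difference of a base gene, both taken by Psm symbol. The base gene Adrm1 was left out of this count, and of the 8 lid genes only Psmd7 lay below its 0.044. Without migrasome replicate 1, 6 of the 8 lid genes reached the lowest difference of a base gene with a Psm symbol. The medians were then 0.53 for the base and 0.29 for the lid. The difference between base and lid was not tested.

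**Figure D2:**
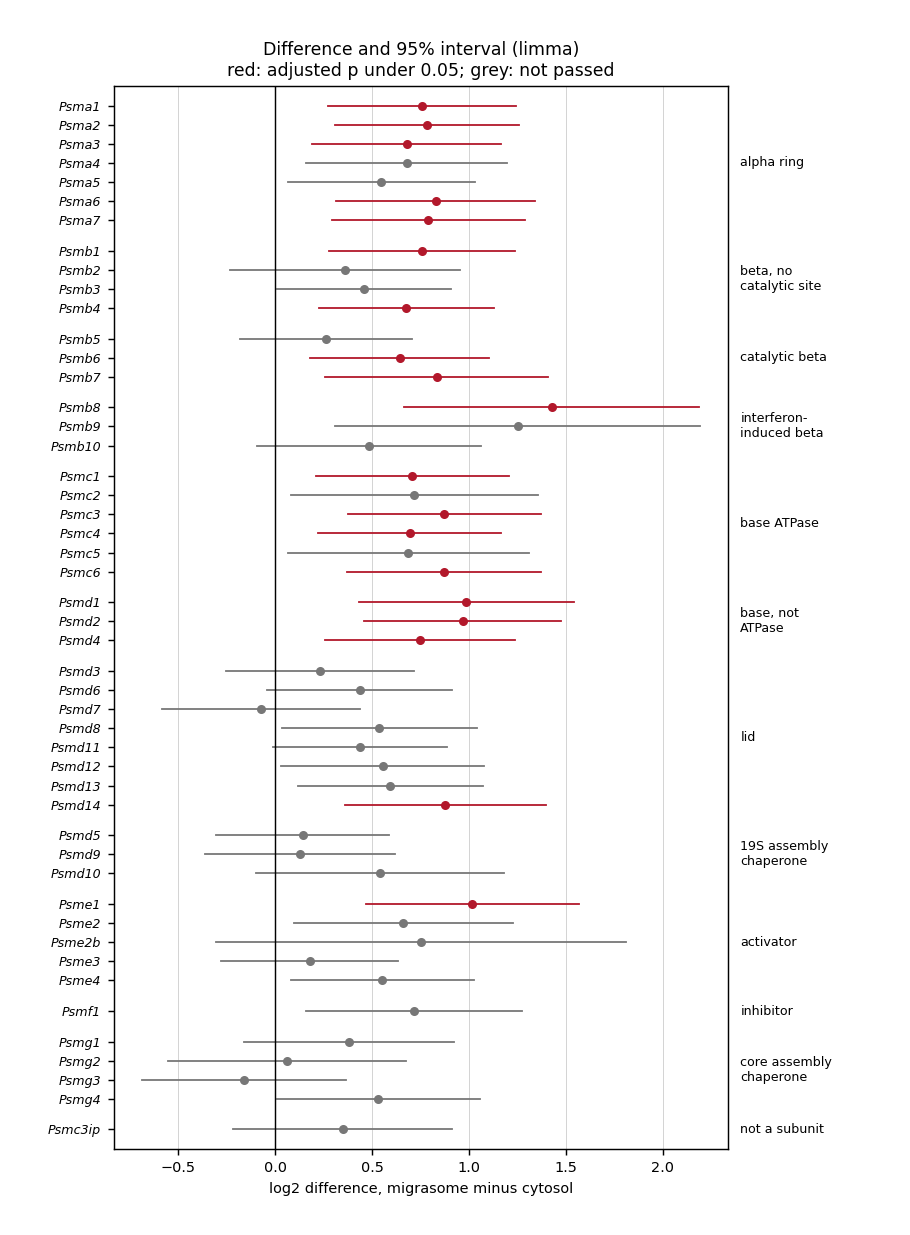
Log2 difference, migrasome minus cytosol, of each tested proteasome gene (point) with its 95% interval from limma (line), grouped by role, red where the adjusted p was under 0.05. The 9 base genes plotted lie between 0.69 and 0.99, the lid genes plotted between -0.073 and 0.88, and none of the 7 assembly chaperones is red. Adrm1 of the base and Shfm1 of the lid, which lack a Psm symbol, are not plotted. Psmb5, Psmd3, Psmd5, Psmd9, Psme3 and Psmg2 turn slightly negative when every library is scaled to the same total.

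Genes for assembly chaperones, which help build the particles and leave them afterwards, were not called in the reported fit, where 8.68% of all tested genes were called higher. They comprise Psmg1 to Psmg4 for the core and Psmd5, Psmd9 and Psmd10 for the base. Their 7 differences ran from -0.16 to 0.54 with a median of 0.14. It became -0.13 when all libraries were scaled to the same total, where the median of all genes was -0.27. Relative to all genes it was 0.15 in the reported fit and 0.14 with the same total. With quantile normalization the median of the 7 was 0.29, or 0.17 relative to all genes. Psmg4, the most abundant of them per kilobase, had 453 and 320 in the migrasome libraries against 261 and 265 in those of cytosol (0.53, limma adjusted p = 0.11). Psmg1 measured 344 and 237 in migrasome, against 224 and 214 in cytosol (0.38). Psmg2 reached 263 and 361 in migrasome and 234 and 372 in cytosol. Psmg3 reached 177 and 172 in migrasome and 223 and 171 in cytosol. Psmg2 and Psmg3 thus overlapped between the fractions.

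None of the 3 base chaperone genes passed the test. Psmd5 had 1124 and 1157 in the migrasome libraries against 957 and 1117 in those of cytosol, with a 95% interval of the difference from -0.30 to 0.59. Psmd9 measured 298 and 243 in migrasome, against 247 and 246 in cytosol. Psmd10, which is also known as the oncoprotein gankyrin, reached 365 and 204 in migrasome and 197 and 178 in cytosol (0.54, limma adjusted p = 0.18). Averaged per kilobase, the 7 chaperone genes were 13.1% and 13.6% of the 14 constitutive core genes in migrasome and 17.7% and 17.2% in cytosol. The same average for the base and lid together was 0.580 and 0.513 times that of the core in migrasome and 0.556 and 0.527 times in cytosol, with overlapping libraries.

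**Figure D3:**
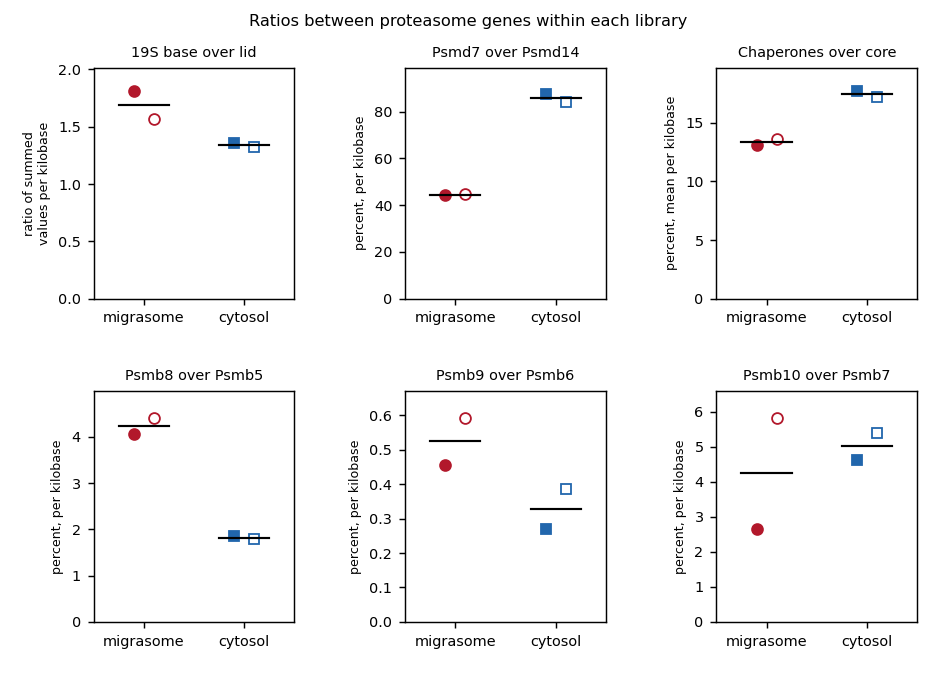
The 6 plotted ratios of per-kilobase levels within each library, with migrasome libraries as red circles and cytosol libraries as blue squares, replicate 1 filled, replicate 2 open, and the mean as a line. The Psmd7 over Psmd14 ratio was 44.2% and 44.8% in migrasome and 87.7% and 84.4% in cytosol, and among the 6 only the Psmb10 over Psmb7 ratio overlaps between the fractions.

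Activators open the core without ubiquitin or ATP. Psme1, an interferon-induced subunit of the PA28 cap, had 308 and 351 in the migrasome libraries against 136 and 193 in those of cytosol, and rose by 1.02 ± 0.25 (SE, limma adjusted p = 0.015). Its partner Psme2 measured 413 and 278 in migrasome, against 236 and 194 in cytosol (0.66, limma adjusted p = 0.078). Its near copy Psme2b reached 17.0 and 15.8 in migrasome and 6.98 and 12.3 in cytosol, which may hold reads of Psme2. In Psme1 and Psme2 the migrasome libraries lay above the cytosol libraries. The same order in Psme2b is no separate evidence, since this gene entered the test through its migrasome libraries.

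Psme3, the nuclear activator, had 1242 and 1111 in the migrasome libraries against 1131 and 952 in those of cytosol, so its groups overlapped (0.18, limma adjusted p = 0.53). Per kilobase, Psme1 was 59.5% and 75.8% of Psme3 in migrasome and 28.8% and 48.7% in cytosol. Psme4, the large activator PA200, measured 1837 and 1404 in migrasome, against 1078 and 1110 in cytosol (0.55, not passed). The inhibitor gene Psmf1 reached 144 and 168 in migrasome and 86.1 and 104 in cytosol (0.72, limma adjusted p = 0.058). Psmc3ip, which is no part of the particle, had 252 and 305 in the migrasome libraries against 179 and 264 in those of cytosol and overlapped.

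Genes whose products sit on the proteasome under other names gave a mixed result. Of 8 such genes 4 were called higher and 1 lower, beside 8.68% and 17.7% of all tested genes, with a median of 0.64. The lid subunit gene Shfm1, also called Sem1, measured 2370 and 1874 in migrasome, against 1359 and 1362 in cytosol (0.63). The ubiquitin protease gene Usp14 (0.73), the thioredoxin-like Txnl1 (0.73) and AI314180, the gene of the scaffold Ecpas (0.79), were called as well. Shfm1 passed narrowly (limma adjusted p = 0.0495). All 4 higher calls were lost with the same total per library, with quantile normalization and without a variance trend. The ubiquitin receptor Adrm1 of the base reached 610 and 765 in migrasome and 606 and 724 in cytosol (0.044). Zfand5, which stimulates the particle, was lower, with 250 and 317 in migrasome and 517 and 516 in cytosol (-0.87, limma adjusted p = 0.017). The assembly factor Pomp, which matures the beta ring, had 2181 and 2078 in the migrasome libraries against 1181 and 1420 in those of cytosol (0.72, limma adjusted p = 0.029), a call that was lost when either cytosol library was left out.

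Nfe2l1 encodes the transcription factor that raises proteasome gene transcription when the particle fails. It measured 489 and 512 in migrasome, against 1756 and 1126 in cytosol, and fell by 1.49 on the log2 scale (SE 0.24, limma adjusted p = 0.0021). Of the 4 control genes examined it was the only called one. The protease gene Ddi2, whose product cuts the Nfe2l1 protein, reached 547 and 788 in migrasome and 503 and 442 in cytosol without passing.

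Upstream of the proteasome, single genes of each list were called, where 8.68% of all tested genes were called higher and 17.7% lower. Of 16 activating and conjugating enzyme genes only Uba1, the main activating enzyme, was called, with 4817 and 3847 in migrasome and 1959 and 1766 in cytosol (1.21 ± 0.22). The median of these 16 was -0.021, near that of all genes. Of 5 tested shuttle receptors Ubqln1 was called (0.62). Among p97 and its cofactors, which extract and unfold substrates, Vcp (0.88) and Faf1 (0.74) were higher of 10. Faf2 was lower, with 132 and 197 in migrasome and 458 and 560 in cytosol (-1.65, limma adjusted p = 0.0016). Over the lists of partner, control, ubiquitin pathway, signalosome and antigen-processing genes together, 13 genes were called higher, of which 1 was kept without cytosol replicate 1 and 2 without cytosol replicate 2. Of the 9 called lower in these lists, 6 of which are antigen-processing genes, 6 and 7 were kept. Nfe2l1 and Faf2 were among those kept in both fits, and Zfand5 was lost in both.

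The proteasome transcripts were shorter than most. Their median exon length was 1408.5 bases, beside 2804 over all tested genes, and over 10615 tested genes with a length the rank correlation of length and log2 difference was -0.16, given as a description across genes that share the same 4 libraries. After the trend with length was taken out of each library, 17 genes were called, 14 of them among the 19. The medians were then 0.57 for the core, 0.74 for the base and 0.52 for the lid, beside 0.066 over all genes, and 12.9% of all genes were called higher.

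**Figure D4:**
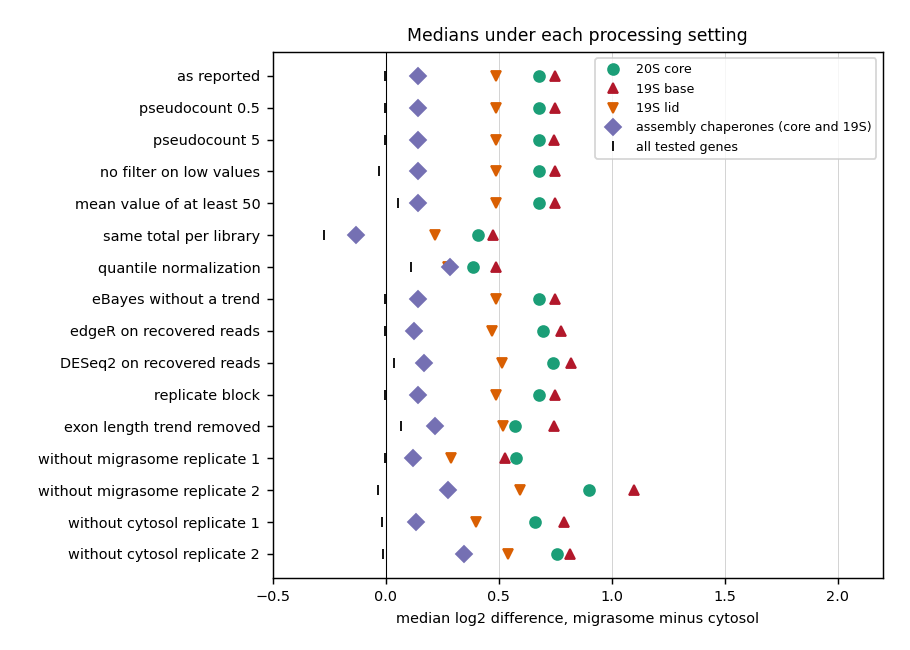
Median log2 difference, migrasome minus cytosol, of the 20S core, the 19S base, the 19S lid, the assembly chaperones and all tested genes (x axis) in the reported fit and under each of 15 other settings (y axis). The core and base medians are positive in every setting shown, the chaperone median is -0.13 with every library scaled to the same total, and the all-gene median shifts to -0.27 there.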

How the data were processed

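RNA of migrasome and cytosol was sequenced in 2 libraries each. Per the submitters' processing notes, trimming and quality tools (cutadapt, Trimmomatic, FastQC), the aligner STAR, HTSeq and DESeq were used with GRCm38; tool versions, annotation, strand setting and multi-mapping rule are not stated there. The deposited signal per gene is a read count that the authors divided by a size factor per library, as the values show: within a tolerance of 0.001, 100% were whole multiples of the smallest value above 0 in their library, so whole reads were recovered. Because the values are normalised, limma 3.58.1 in R 4.3.3 (eBayes with a trend, no replicate block) was run on log2(value + 1), which understates changes of low genes. On the recovered reads edgeR 4.0.16 called 3135 genes, and DESeq2 1.42.0 was a further alternative. Simulated data were used to test the fit. Lengths and positions came from GENCODE M21, where all 50 genes were found, and figures from matplotlib 3.10.9. Replicates differed beyond sampling noise (chi-square over its degrees of freedom 27.9 for migrasome and 17.6 for cytosol), so none was counted as a repeat. The members, lists and tests were chosen with earlier results of these data known. All members could be named; values per library were due for the cutting subunits, the 3 largest differences in each direction and the 2 most abundant genes of each class, and of the other lists for called genes. Paaf1 was not analysed here. Results for a few genes of the marker and pathway lists are not reported here.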

Additional observations from a re-analysis of the deposited data

How the results depend on the processing

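The 19 proteasome calls became 3 with no filter on low values, 5 with every library scaled to the same total, 7 with quantile normalization, 4 with eBayes without a trend and 32 with a replicate block, and from 1 to 32 when single libraries were left out. Only 3 of the 7 and 3 of the 4 were among the 19; no setting called a proteasome gene lower. Over all genes, the 943 higher calls became 393, 322, 483 and 1802 with no filter, the same total, no trend and the block, and from 231 to 2085 with single libraries left out, where the lower calls ran from 1147 to 2800. Same total scaling gave 322 higher and 2522 lower calls and quantile normalization 1194 and 1403, beside 943 and 1919 in the reported fit. The replicate numbers are not said to pair the libraries, and same-numbered libraries deviated together with a correlation of 0.23 over 2 pairs, so the block stayed an alternative. The same total moved the median of all genes to -0.27 and quantile normalization to 0.11. The core, 19S, activator and core chaperone medians were 0.41, 0.32, 0.39 and -0.052 with the same total; relative to all genes they were 0.68, 0.59, 0.66 and 0.22. With quantile normalization the core, 19S and core chaperone medians were 0.38, 0.36 and 0.37, or 0.27, 0.25 and 0.26 relative to all genes, and without the length trend the core chaperone median was 0.043. With single libraries left out the core, 19S, activator and core chaperone medians ran from 0.58 to 0.90, 0.40 to 0.88, 0.37 to 0.80 and 0.20 to 0.37. Single genes that were not called changed sign. With the same total these were Psmb5 (-0.011), Psmd3 (-0.041), Psmd5 (-0.13), Psmd9 (-0.14), Psme3 (-0.094), Psmg2 (-0.21) and Adrm1 (-0.23). With quantile normalization they were Psmd3 (-0.088), Psmd5 (-0.064), Psme3 (-0.041), Psmg3 (0.0985) and Adrm1 (-0.034), and without the length trend Psmg2 (-0.11). With single libraries left out Psmd7 ran from -0.34 to 0.20, Psmd9 from -0.018 to 0.27, Psmg2 from -0.27 to 0.39, Psmg3 from -0.35 to 0.026 and Adrm1 from -0.12 to 0.21. Changes of call under the scalings, the filter and the variance model have causes that were not tested. DESeq2 kept all 19 calls and made 24, and edgeR kept all 19 and made 21. Depth limits Psmb8, Psmb9 and Psme2b, which rest on 9 to 36 reads per library.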

Other observations

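The COP9 signalosome is built on the same plan as the 19S lid and removes the ubiquitin-like Nedd8 from its targets. Of its 9 tested genes 3 were called higher and none lower, beside 8.68% and 17.7% of all tested genes. The median log2 difference was 0.51, close to the 0.49 of the lid, a comparison that was not tested. Cops4 measured 1602 and 1337 in migrasome, against 738 and 877 in cytosol (0.86 ± 0.21, SE, limma adjusted p = 0.015), and Cops2 (0.74) and Cops3 (0.69) were called too. Cops5, the enzyme of the complex and the counterpart of Psmd14, reached 1134 and 815 in migrasome and 680 and 626 in cytosol without passing (0.56). Cops6, the counterpart of Psmd7, had 595 and 515 in the migrasome libraries against 359 and 419 in those of cytosol (0.51). Migrasome libraries thus lay above cytosol libraries for both genes of this pair, an order seen in 33.3% of all tested genes. Cops2 and Cops3 were no longer called when either cytosol library was removed, and Cops4 with cytosol replicate 1 removed.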
